A study of Mus musculus with 49 samples.

Results

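The genes followed here encode the machinery that copies DNA. The set holds 50 genes, chosen by symbol from the 23992 gene symbols listed for every library, with the longest listed transcript standing for each gene. All 50 passed the filter on low counts. They encode the 6 subunits of the origin recognition complex, the licensing factors Cdc6 and Cdt1 with the Cdt1 inhibitor geminin, the 6 subunits of the MCM2-7 helicase, 10 factors of origin firing and helicase activation, 9 subunits of the replicative polymerases and primase, the sliding clamp PCNA with the 5 subunits of its loader, the 3 RPA subunits, 3 enzymes that mature Okazaki fragments, 2 CAF-1 subunits and the 2 fork protection proteins Tipin and Timeless.

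In G1 the origin recognition complex, Cdc6 and Cdt1 load MCM2-7 rings on DNA, a step called licensing. In S phase the kinase Cdc7 with its activator Dbf4 helps to turn the loaded rings into active helicases by the addition of Cdc45 and the GINS complex, and DNA polymerases then copy the strands with PCNA as their clamp. Resting T cells are out of cycle and IL-2 is a growth factor for them, and many replication genes are known targets of the E2F transcription factors at the entry into S phase. STAT5A and STAT5B are the transcription factors that the IL-2 receptor activates by phosphorylation of a single tyrosine in each.

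RNA-seq was performed on splenic CD8+ T cells of C57BL/6J mice, taken before IL-2 was added (0 h) or after 4, 24 or 48 h with human IL-2 at 500 IU/ml. There were 2 mouse lines, made by CRISPR/Cas9 and backcrossed to C57BL/6J for 6 generations, and matings of heterozygotes gave the homozygous knock-in (KI) mice. In the STAT5A line the phosphorylated tyrosine of STAT5A was replaced by phenylalanine and STAT5B was left wild type, and in the STAT5B line the same was done to STAT5B and STAT5A was left wild type. The mutant proteins are still made but lack the site of phosphorylation, and the allele is present in all cells of the mouse, not only in T cells. Each KI group had wild-type (WT) littermates of its own line, the mice being adults of 8 to 24 weeks and of both sexes. The labels do not say whether the libraries of a group come from separate mice, so the p-values measure the spread between these libraries. Each of the 16 groups of line, genotype and time had 3 libraries, except the STAT5A KI group at 4 h with 2, since replicate 3 of that group held only 1028515 reads on genes and was left out. The 47 libraries used had between 17369112 and 60200653 reads on these transcripts (median 41410666). Replicate 2 of the STAT5A WT group at 4 h stood apart: 44.9% of its mapped reads lay on these transcripts, against 68.7% to 84.4% in the other 46, and since RPKM divides by all mapped reads, its RPKM values were low for nearly every gene below.

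The cells expressed Cd8b1, the most abundant of the 5 CD8 T cell markers followed, with a summed RPKM of the 5 genes between 837 and 1298 at 0 h. At 48 h this sum was higher in KI libraries of both lines with no overlap, at 1498 to 1667 against 1030 to 1062 for STAT5B and 1505 to 1661 against 1062 to 1184 for STAT5A, while at 0 h it was lower in KI libraries, at 953.8 to 1016 against 1158 to 1298 and 836.7 to 881.3 against 932 to 1164. Markers of other spleen cells were also present and were higher in the KI libraries. The sum of 7 B cell markers, led by Cd79a, was 222 to 229 RPKM in STAT5B KI libraries and 55.1 to 63.4 in their WT libraries at 0 h, and 124.3 to 130.6 against 11.4 to 13.8 at 48 h. In the STAT5A line it was 242 to 299 against 55.8 to 159 at 0 h, and 101.3 to 120.6 against 13.3 to 39.4 at 48 h. Erythroid genes (8, led by Hbb-b1) summed to 116.3 to 222.8 RPKM in STAT5B KI and 4.57 to 8.75 in WT libraries at 48 h, myeloid genes (8, led by Lyz2) to 55.1 to 87.1 against 3.21 to 4.47, and CD4 T cell genes (4, led by Cd4) to 17.2 to 17.7 against 3.40 to 4.01. In the STAT5A line at 48 h the same sums were 18.7 to 23.3 against 7.29 to 7.97, 21.0 to 57.0 against 3.09 to 7.48 and 12.6 to 13.3 against 4.55 to 5.37, while at 0 h the erythroid sums overlapped. At 0 h the STAT5B KI sums of erythroid genes were 397.7 to 973.8 against 37.4 to 115.6, and those of myeloid genes 115.4 to 170.0 against 31.7 to 39.2. Genes of memory-phenotype CD8 T cells (6, led by Ccl5) were lower in STAT5B KI libraries before IL-2, with sums of 625.8 to 750.8 RPKM against 898.2 to 1296, and overlapped at 0 h for STAT5A (378.7 to 506.7 against 502.3 to 675.1). At 48 h their sums were lower in KI libraries of both lines with no overlap, at 665.1 to 861.4 against 1222 to 1234 for STAT5B and 633.3 to 789.3 against 923 to 1144 for STAT5A, but Ccl5 itself went the other way, with means of 277.2 against 116.5 RPKM for STAT5B (log2 fold change 1.17, adjusted p = 0.00037, edgeR) and 115.8 against 84.1 for STAT5A (0.40, adjusted p = 0.24). The sum of 5 naive T cell genes (Tcf7, the most abundant, Lef1, Ccr7, Il7r and Klf2) was higher in KI libraries at 48 h, at 854.3 to 979.5 against 352.3 to 375.9 for STAT5B and 760.3 to 802.5 against 385.5 to 456.9 for STAT5A, while at 0 h it was lower in STAT5B KI libraries (974 to 1096 against 1122 to 1366) and overlapped for STAT5A (1149 to 1459 against 1129 to 1394). The sum of 5 NK cell genes, led by Eomes, was lower in KI libraries at 48 h, at 53.5 to 77.8 against 90.3 to 116.2 for STAT5B and 79.3 to 84.1 against 112.5 to 143.3 for STAT5A, but its genes moved both ways, with 2 higher (Ncr1, log2 fold change 2.05, and Klra8, 1.04) and 2 lower (Klrb1c, -1.38, and Eomes, -1.01) in STAT5B KI cells, and 1 higher (Ncr1, 0.85) and 2 lower in STAT5A KI cells (edgeR, adjusted p of 0.05 or less). No gene of these lists was at 0 in all libraries of a group. The B cell and myeloid sums were higher in all KI than in all WT libraries at each of the 4 times in both lines, the B cell sum at 24 h with 173.1 to 199.5 against 25.4 to 32.3 for STAT5B and 173.3 to 216.3 against 26.1 to 86.6 for STAT5A, whereas the erythroid sums of the STAT5A line overlapped at 0, 4 and 24 h. The part of these markers in the KI results below was not tested. In bulk RNA, fewer cycling cells and less RNA of a gene per cell cannot be told apart.

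Nearly the whole set rose with time in IL-2 in WT cells. No cells cultured without IL-2 were compared, so IL-2 and time in culture cannot be told apart. The summed reads of the 50 genes went from 1971 ± 58.6 CPM (counts scaled to the reads on genes; SD, n = 3) at 0 h to 4885 ± 332.8 at 24 h and 7404 ± 216 at 48 h in STAT5A WT cells, and from 1990 ± 28.3 to 5671 ± 324 and 7728 ± 179 in STAT5B WT cells. At 4 h the sums were 1862 ± 201 and 2003 ± 28.1. The libraries of 24 h and of 48 h did not overlap with each other or with those of the earlier times.

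**Figure D1:**
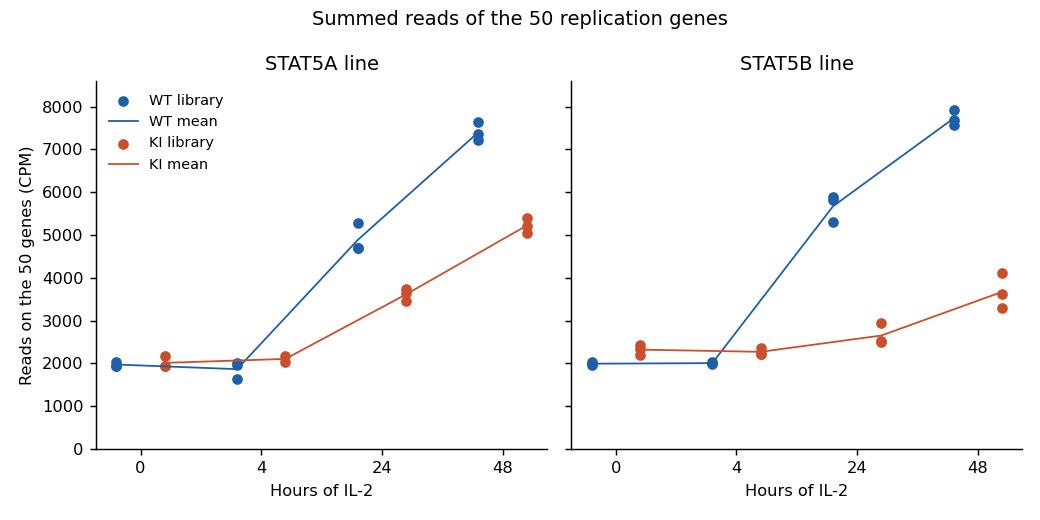
Summed reads on the 50 replication genes in CPM for each library (points) and as group means (lines) at 0, 4, 24 and 48 h of IL-2, spaced evenly and not to scale in time, for the STAT5A line (left) and the STAT5B line (right). The WT means rose from 1971 to 7404 (STAT5A) and from 1990 to 7728 (STAT5B), while the KI means reached 5220 and 3668.

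A gene was called changed at an adjusted p of 0.05 or less (edgeR quasi-likelihood test, Benjamini-Hochberg over 15566 genes) if it also changed 2-fold or more. At 48 h 44 of the 50 genes were called higher than at 0 h in STAT5A WT cells and 43 in STAT5B WT cells, and none lower, while 14.3% and 14.6% of all genes tested were called higher. The median log2 fold change of the 50 genes was 2.18 and 2.16, against -0.12 and -0.13 for all genes tested. At 24 h 37 were already called higher in each line, where 8.72% and 9.07% of all genes were. On the log2 scale most of the change fell between 4 and 24 h, with medians of 1.60 and 1.63 and 36 genes called higher in each line (all genes, 7.46% and 7.34%). From 24 to 48 h the medians were 0.69 and 0.53, and 9 and 2 genes passed the fold threshold (all genes, 3.83% and 3.05%), but 47 and 46 were higher at an adjusted p of at most 0.05 without it (all genes, 22.8% and 21.5%). Among the genes called at 48 h, the RPKM at 24 h had covered a median of 48.96% of the rise in STAT5A WT cells (44 genes) and 60.5% in STAT5B WT cells (43 genes).

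The first 4 h gave another picture. In STAT5A WT cells 1 gene was called higher and 5 lower, and in STAT5B WT cells 1 higher and 4 lower, while 10.0% of all genes were called higher and 11.4% lower of the STAT5A WT fit, and 5.83% and 9.89% of the STAT5B WT fit. The share of the set called lower was thus near that of all genes. Without the fold threshold 23 and 14 of the 50 were lower (all genes, 28.9% and 24.5%) and 13 were higher in each line (all genes, 29.5% and 25.1%). In KI cells 4 (STAT5A; all genes, 11.2%) and 3 (STAT5B; all genes, 8.85%) were called lower at 4 h, and 13 and 16 without the fold threshold (all genes, 25.2% and 25.7%). Called higher at 4 h in KI cells were 2 genes of STAT5A, Pole2 (1.17) and Gins3 (1.08), and none of STAT5B (all genes, 6.58% and 4.92%), and 12 and 9 were higher without the fold threshold (all genes, 25.2% and 22.8%). The gene called higher in WT cells of both lines was Pole2, the second subunit of the leading-strand polymerase epsilon. Its log2 fold change in WT cells was 1.22 (SE 0.15, adjusted p = 5.7e-09) for STAT5A and 1.09 (SE 0.14, adjusted p = 6.1e-08) for STAT5B. Called lower in WT cells of both lines were Orc1, Cdc6, Dna2 and Dbf4. Among WT cells Pcna was called lower in the STAT5A line only, its log2 fold change being -1.07 there against -0.75. The difference between the lines at 4 h was not tested.

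Orc1, the largest subunit of the origin recognition complex and its ATPase, had the deepest dip. Its RPKM in STAT5B WT cells was 1.16, 0.828 and 0.917 at 0 h, 0.162, 0.248 and 0.237 at 4 h, 5.73, 6.64 and 6.36 at 24 h and 12.2, 11.5 and 11.6 at 48 h. In STAT5A WT cells it was 1.43, 1.48 and 1.00, then 0.163, 0.163 and 0.239, then 4.19, 4.76 and 4.55, then 9.31, 11.2 and 9.88. No library overlapped between any of these times, and the order was the same in both lines. The log2 fold change from 0 to 4 h was -2.77 (SE 0.26, adjusted p = 1.3e-11) (STAT5A line) and -2.35 (SE 0.25, adjusted p = 4.7e-10) (STAT5B line), and from 0 to 48 h it was 2.76 and 3.42.

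The other subunits of the complex differed in size of response. Orc6, the most abundant of them per length in WT cells at 48 h, went from 8.76, 8.43 and 9.40 RPKM at 0 h to 30.7, 29.6 and 29.1 at 48 h in STAT5B WT cells, and Orc2 was also called higher, at a log2 fold change of 1.21 and 1.34. Orc3, Orc4 and Orc5 did not reach the fold threshold in either line. Orc5 was flattest, with 8.46, 7.75 and 7.67 RPKM at 0 h and 10.7, 11.5 and 11.9 at 48 h in STAT5B WT cells, a log2 fold change of 0.34 (SE 0.11, adjusted p = 0.0058), and 0.20 (SE 0.11, adjusted p = 0.095) in the STAT5A line. The complex therefore counted 3 of 6 genes called in each line.

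Among the licensing genes Cdc6, the ATPase that brings MCM2-7 to the origin with Cdt1, followed the course of Orc1. Its RPKM in STAT5A WT cells was 1.16, 1.19 and 1.15 at 0 h, 0.408, 0.303 and 0.519 at 4 h, 7.33, 9.47 and 7.57 at 24 h and 16.6, 20.1 and 17.8 at 48 h, a log2 fold change of 3.75 (SE 0.21, adjusted p = 8.1e-18) over the 48 h. Geminin, which binds Cdt1 and blocks a new round of loading, went from 9.73, 7.67 and 8.16 to 58.6, 65.9 and 64.1 RPKM. Cdt1 itself did not follow: it was 33.4, 33.5 and 31.1 RPKM at 0 h and 49.4, 51.5 and 46.6 at 48 h in STAT5A WT cells, a log2 fold change of 0.38 (SE 0.11, adjusted p = 0.0025), and 0.40 in the STAT5B line. Cdt1 thus stood above geminin in RPKM before IL-2 and below it at 48 h in every WT library of both lines.

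The 6 MCM2-7 genes were all called higher at 48 h in both lines and moved within a narrow range, from a log2 fold change of 1.94 (Mcm4) to 2.79 (Mcm5) in STAT5A and from 1.99 to 2.88 for the same genes in STAT5B WT cells. Mcm6, the most abundant per length, had 25.5, 25.2 and 28.0 RPKM at 0 h and 152.3, 166 and 151.7 at 48 h in STAT5A WT cells. Mcm5 had 15.3, 15.4 and 16.7 at 0 h and 125.4, 132.4 and 120.7 at 48 h in the same cells. All libraries of 48 h lay well above those of 0 h for each subunit. Mcm6 was also higher at 4 h in both lines at an adjusted p of at most 0.05, below the fold threshold, with log2 fold changes of 0.24 and 0.39.

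The genes of origin firing held both the steepest and the flattest members of the set. Mcm10, which takes part in helicase activation, went from 0.688, 0.631 and 0.886 RPKM at 0 h to 24.2, 24.6 and 25.7 at 48 h in STAT5B WT cells, a log2 fold change of 4.90 (SE 0.23, adjusted p = 4.4e-20), and of 4.80 in STAT5A WT cells. Cdc45, a part of the active helicase, went from 1.77, 1.83 and 1.99 to 36.1, 34.2 and 36.3 RPKM in the STAT5B WT group. In all, 8 of the 10 genes were called in each line, the exceptions being the GINS subunit Gins4 and Dbf4. Gins4 fell just short of the fold threshold, with log2 fold changes of 0.99 and 0.94.

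Dbf4, the activator of the kinase Cdc7, fell at 4 h and was still low at 24 h, when nearly all of the set had risen. Its RPKM in STAT5B WT cells was 24.6, 23.4 and 24.0 at 0 h, 10.7, 10.7 and 10.2 at 4 h, 11.3, 11.5 and 12.7 at 24 h and 30.3, 31.6 and 30.6 at 48 h. It was therefore called lower at 24 h, with a log2 fold change of -1.21 (SE 0.08, adjusted p = 4.7e-15) and of -1.18 in the STAT5A line, and it was the only one of the 50 called lower at that time in WT cells (all genes, 14.2% for STAT5A and 13.5% for STAT5B). By 48 h it was back near the starting level, at 0.15 (SE 0.08, adjusted p = 0.1) and 0.18 (SE 0.08, adjusted p = 0.043). Its partner Cdc7 was above its 0 h level in all WT libraries of 24 h and rose to log2 fold changes of 1.86 and 1.91 at 48 h.

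All 9 genes of the replicative polymerases and primase were called higher at 48 h in both lines. Pole, the catalytic subunit of polymerase epsilon, rose most, from 1.69, 1.92 and 2.08 to 19.1, 21.6 and 15.7 RPKM in STAT5A WT cells, a log2 fold change of 3.10 (SE 0.16, adjusted p = 3.5e-19). Pold2, a subunit of the lagging-strand polymerase delta and the most abundant of the 9 per length, went from 14.5, 15.0 and 18.4 to 53.3, 60.9 and 56.0 RPKM, and Pold3, another delta subunit, had a log2 fold change of 1.56 and 1.59. Pole2 differed from Pole in timing, since it was near 14.7 RPKM by 4 h in STAT5B WT cells (replicates 14.4, 14.0 and 15.5) after 6.65, 5.37 and 6.23 at 0 h.

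Pcna had the highest RPKM of the set at each time. It was 143.9, 134.7 and 136.1 at 0 h, 93.1, 86.6 and 99.1 at 4 h, 264, 285 and 325 at 24 h and 464, 457 and 476 at 48 h in STAT5B WT cells, so that it fell and then rose, with a log2 fold change over 48 h of 1.58 (SE 0.09, adjusted p = 2.6e-17). Of its loader, Rfc4 rose most in the mean of both lines, from 6.17, 5.33 and 6.47 to 34.1, 37.8 and 37.2 RPKM in STAT5A WT cells. Rfc1, the large subunit, rose least, with log2 fold changes of 1.08 (SE 0.05, adjusted p = 7.9e-20) and 0.997 (SE 0.05, adjusted p = 5.8e-19), the second just under the fold threshold.

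The remaining genes were all called higher in both lines at 48 h. Rpa1, the largest subunit of the single-strand binding protein RPA, went from 32.0, 31.1 and 38.9 to 86.5, 94.5 and 87.3 RPKM in STAT5A WT cells, and the small subunit Rpa3 rose more, by log2 fold changes of 1.88 and 1.95. Lig1, the ligase that joins Okazaki fragments, went from 6.36, 7.35 and 7.82 to 65.7, 72.3 and 65.1 RPKM, and the flap nuclease Fen1 had log2 fold changes of 2.10 and 2.31. Chaf1a, the large subunit of the histone chaperone CAF-1, had log2 fold changes of 3.60 and 3.60, above those of its partner Chaf1b (2.26 and 2.14). Tipin, which works with Timeless at the fork, reached 70.7, 69.4 and 69.5 RPKM at 48 h from 8.15, 8.61 and 10.6 in STAT5B WT cells, and Timeless had log2 fold changes of 2.11 and 1.93.

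**Figure D2:**
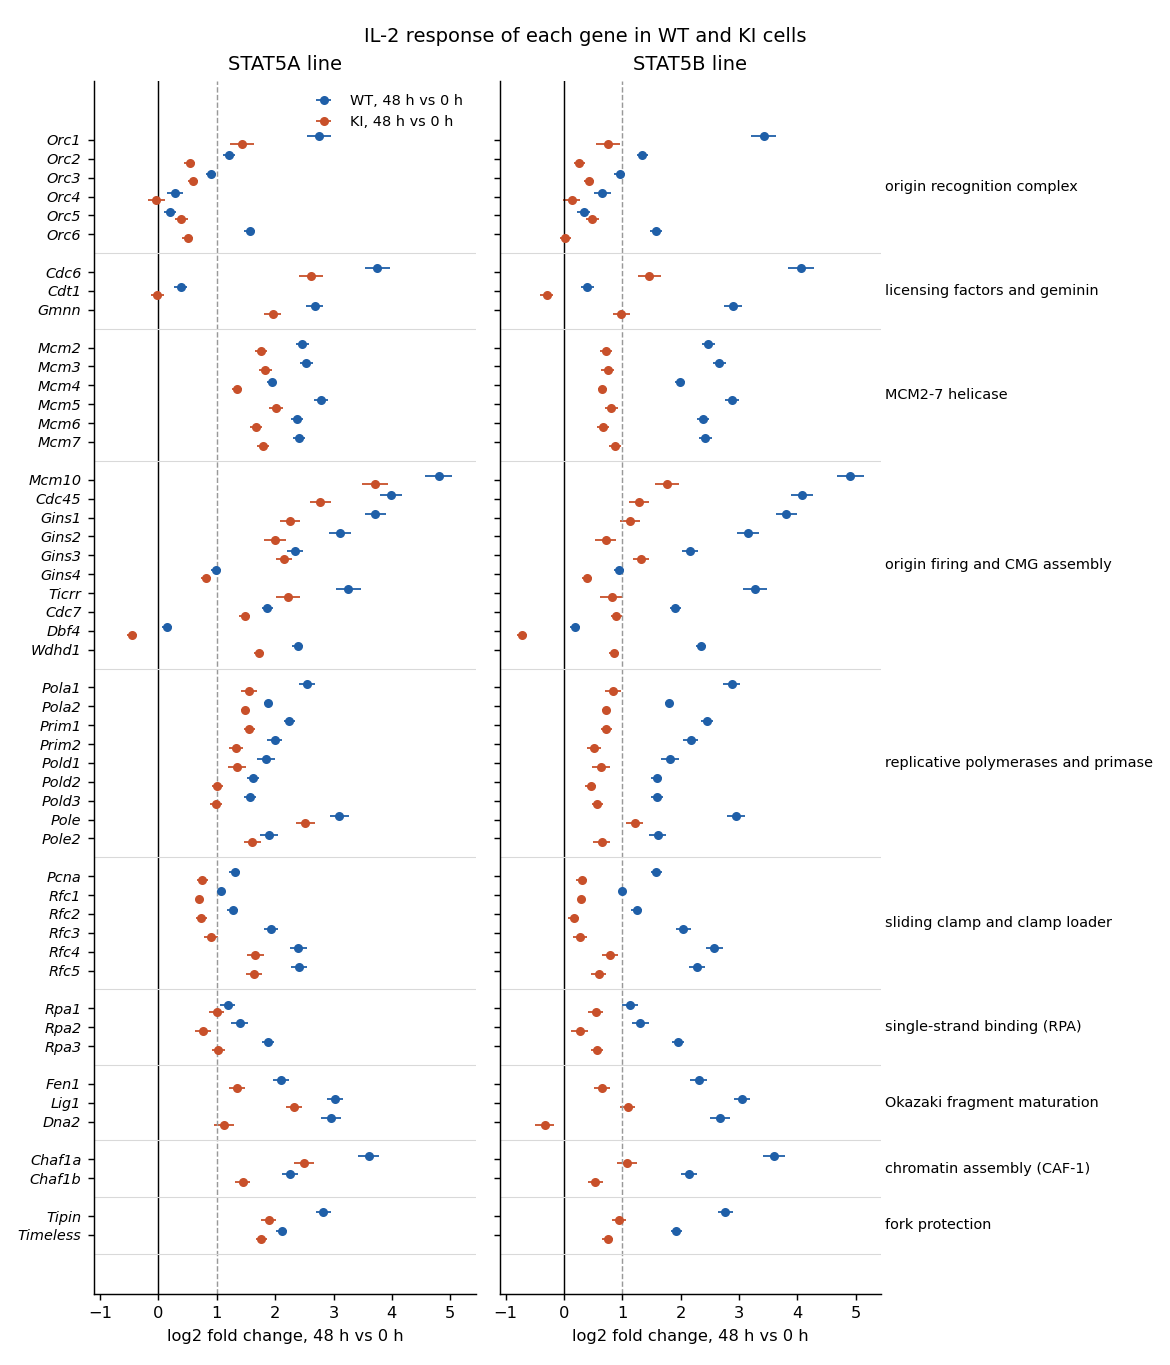
Log2 fold change from 0 to 48 h of IL-2 (horizontal axis, bars are SE from edgeR) of each of the 50 genes, grouped by role, in WT (blue) and KI cells (orange) of the STAT5A line (left) and the STAT5B line (right), with 0 as a solid and the fold threshold of 2 as a dashed line. The WT points range from 0.15 (Dbf4) to 4.80 (Mcm10) in the STAT5A line, and most KI points lie to their left, further in the STAT5B line.

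The promoters of these genes were searched for the letters of E2F sites, because the genes moved together. RefSeq promoter windows of GRCm38.p6, 250 bases before to 50 bases after each start, were matched by symbol for 41 of the 50 genes, with no window for Mcm4, Gins2, Prim2, Tipin, Gins1, Gmnn, Gins4, Rfc2 and Pole. The words TTTCCCGC, TTTGGCGC, TTTCGCGC and TTTGCCGC, read on both strands, were found for 15 of the 41 genes (36.6%), against 2.60% of the 27025 genes with a window and 4.34% of the 11287 of them that were tested for expression. The word TTTCGCGC alone was found for 6 of the 41 (14.6%, against 0.374% and 0.709%). For comparison, CCAAT was found for 56.1% (41.1% and 42.5%) and TTTGAA for 17.1% (20.2% and 14.8%). Stretches of 6 genes that lie before the start are given here 5′ to 3′ on the strand of the gene, with the E2F-type letters in capitals, because they show the match in genes of licensing (Cdc6, Orc1), the helicase (Mcm5, Mcm6, Gins3) and the primase-polymerase (Pola1).
Mcm5, chr8:75109336-75109387, plus strand: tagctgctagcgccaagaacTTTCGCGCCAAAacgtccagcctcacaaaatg
Mcm6, chr1:128359725-128359835, minus strand: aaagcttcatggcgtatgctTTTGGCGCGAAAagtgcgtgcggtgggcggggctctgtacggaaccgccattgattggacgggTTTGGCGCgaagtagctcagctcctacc
Cdc6, chr11:98907993-98908040, plus strand: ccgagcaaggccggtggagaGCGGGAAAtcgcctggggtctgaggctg
Orc1, chr4:108579407-108579453, plus strand: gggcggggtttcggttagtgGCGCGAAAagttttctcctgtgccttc
Gins3, chr8:95633498-95633545, plus strand: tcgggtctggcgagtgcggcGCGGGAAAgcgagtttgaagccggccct
Pola1, chrX:93632266-93632313, minus strand: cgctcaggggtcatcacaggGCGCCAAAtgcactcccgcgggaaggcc
The stretches of Mcm5 and Mcm6 each open with 2 words on opposite strands that share 4 bases, and Mcm6 holds a further TTTGGCGC, the only window of the 41 with 3 matches. The median log2 fold change at 48 h was 2.37 for the 15 genes with the letters and 1.99 for the 26 without in STAT5A WT cells, and 2.38 and 1.94 in STAT5B WT cells, with ranges that overlapped (0.38 to 3.75 and 0.15 to 4.80 in the STAT5A line). For KI against WT cells at 48 h the medians were -0.60 with the letters and -0.67 without in the STAT5A line. In the STAT5B line they were -1.35 and -1.29, and the ranges overlapped in both lines. These are matches of letters, and binding was not measured for them here.

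Before IL-2 the KI cells of the STAT5A line did not differ from WT in any of the 50 genes by the fold threshold, and at an adjusted p of at most 0.05 alone Dna2 was higher and Orc5 lower (all genes called higher, 2.56%, and lower, 0.880%). STAT5B KI cells started somewhat higher: 16 genes were higher and 1, Dbf4, lower at an adjusted p of at most 0.05 (all genes called higher, 13.6%, and lower, 9.26%). Only Mcm10 passed the fold threshold (all genes called higher, 7.38%; the count was 0 without WT or KI replicate 2, 2 without WT replicate 3 or KI replicate 1 and 3 without KI replicate 3), with 1.28, 2.06 and 1.57 RPKM against 0.688, 0.631 and 0.886 in WT cells and a log2 fold change of 1.09 (SE 0.22, adjusted p = 0.0004). Cdc45 had 3.45, 4.56 and 3.61 RPKM against 1.77, 1.83 and 1.99, with 0.99 (SE 0.18, adjusted p = 0.00012). For both genes all 3 KI libraries lay above all 3 WT libraries, and this was so for 27 of the 50 genes of the STAT5B comparison (all genes, 28.4%) and for 4 in STAT5A cells (all genes, 13.1%). The sums of B cell, erythroid and myeloid markers were also higher in those KI libraries, as given above.

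At 4 h few genes were called, all higher in KI cells, at shares of the set below those of all genes by the fold threshold. In STAT5B KI cells 3 genes were called higher than WT (all genes, 9.20%), and 11 were higher and 1 lower without the fold threshold (all genes called higher, 14.5%, and lower, 12.8%). Mcm10 had 1.62, 2.25 and 1.55 RPKM against 0.587, 0.637 and 0.742 in WT cells, with a log2 fold change of 1.35 (SE 0.22, adjusted p = 1.7e-05). Cdc6 and Ticrr, a factor of origin firing, were just past the threshold at 1.001 (SE 0.23, adjusted p = 0.00091) and 1.002 (SE 0.21, adjusted p = 0.00033), and the count of 3 was 1 without WT replicate 2 or without KI replicate 2. The gene that was lower was Pole2, at -0.76 (SE 0.14, adjusted p = 9.5e-05). In STAT5A KI cells, with 2 libraries, none passed the fold threshold (all genes called higher, 2.47%) and 6 were higher without it, Gmnn, Mcm10, Gins2, Rfc2, Rfc4 and Fen1 (all genes, 11.9%). All KI libraries lay above all WT libraries in RPKM for 32 genes in the STAT5A comparison (all genes, 31.8%) and for 26 in STAT5B cells (all genes, 31.3%). The STAT5A count includes WT replicate 2, whose RPKM values were low for most genes, so it rests mainly on the other WT libraries.

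In STAT5A KI cells the rise after IL-2 was smaller. The summed reads of the 50 genes reached 3611 ± 144.6 CPM at 24 h and 5220 ± 167 at 48 h (SD, n = 3), below all WT libraries of those times. Against 0 h, 22 genes were called higher at 24 h (all genes, 7.36%; 43 without the fold threshold, all genes 29.8%) and 35 at 48 h (all genes, 9.31%). At 24 h Dbf4 was called lower, at -1.17 (all genes, 13.8%), and without the fold threshold 2 genes were lower, Dbf4 and Cdt1 (all genes, 27.7%). The RPKM gained by 48 h was a median of 56.5% of the WT gain over the 44 genes called in WT cells, from 31.0% for the nuclease-helicase Dna2 to 80.5% for Pole2. By role the median share was lowest for the 3 called genes of the origin recognition complex (35.9%), and it was 58.4% for MCM2-7 and 59.4% for the polymerases.

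Direct comparison of STAT5A KI and WT cells gave few genes past the fold threshold, 1 at 24 h (Dna2; all genes, 1.24%) and 3 at 48 h (Dna2, Orc1 and Gins1; all genes, 2.43%). At an adjusted p of at most 0.05 without the threshold, 38 genes were lower at 24 h (all genes, 9.01%) and 47 at 48 h (all genes, 22.8%), and none was higher at either time. The median log2 fold change of the 50 genes was -0.52 at 24 h and -0.65 at 48 h, against 0.04 at 48 h for all genes tested. All KI libraries lay below all WT libraries for 42 genes at 24 h (all genes, 14.3%) and for 49 at 48 h (all genes, 26.1%), the exception at 48 h being Orc5. The count past the fold threshold depended on single libraries, with 7 genes without KI replicate 1, 6 without WT replicate 1 and 5 without WT replicate 3 at 48 h, and with 4 without WT replicate 1 and 3 without KI replicate 1 at 24 h. It also depended on the processing, since the count at 48 h was 5 with DESeq2, RLE factors and several other settings given below.

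Dna2 had 4.12, 3.94 and 3.91 RPKM in STAT5A KI and 8.70, 9.66 and 8.24 in STAT5A WT cells at 48 h, a log2 fold change of -1.20 (SE 0.16, adjusted p = 1.9e-07). Mcm5 had 84.2, 78.4 and 74.2 against 125.4, 132.4 and 120.7, with -0.73 (SE 0.11, adjusted p = 2.1e-06). Pcna had 309, 292 and 270.3 against 414, 446 and 448, with -0.64 (SE 0.09, adjusted p = 6.3e-07). In these genes the groups did not overlap and the KI level was between the WT levels of 24 and 48 h for Mcm5 and Pcna. Rpa1, Pole2 and Orc5 did not pass the test at 48 h, with log2 fold changes of -0.30 (SE 0.13, adjusted p = 0.057), -0.27 (SE 0.14, adjusted p = 0.11) and -0.18 (SE 0.11, adjusted p = 0.17).

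In STAT5B KI cells the set rose little and late. The summed reads were 2319 ± 112.1 CPM at 0 h, 2267 ± 82.5 at 4 h, 2648 ± 246 at 24 h and 3668 ± 415 at 48 h (SD, n = 3). No gene was called higher at 24 h, where 4.59% of all genes were, and 8 at 48 h, where 5.56% of all genes were: Cdc6, Mcm10, Cdc45, Gins1, Gins3, Pole, Lig1 and Chaf1a. At 24 h 2 genes, Dbf4 (-1.37) and Dna2 (-1.29), were called lower (all genes, 11.2%). Without the fold threshold, 14 genes were higher (all genes, 21.1%) and 5 lower (all genes, 26.7%) at 24 h, and 42 were higher (all genes, 24.7%) and 2, Dbf4 and Cdt1, lower (all genes, 26.9%) at 48 h. The count at 48 h was 13 without KI replicate 3, the library with the lowest values of most genes. The RPKM gained by 48 h was a median of 21.7% of the WT gain over the 43 genes called in WT cells, from -2.97% for Dna2 to 51.4% for Gins3, and at 24 h it was 7.12%, against 55.4% in the STAT5A line.

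**Figure D3:**
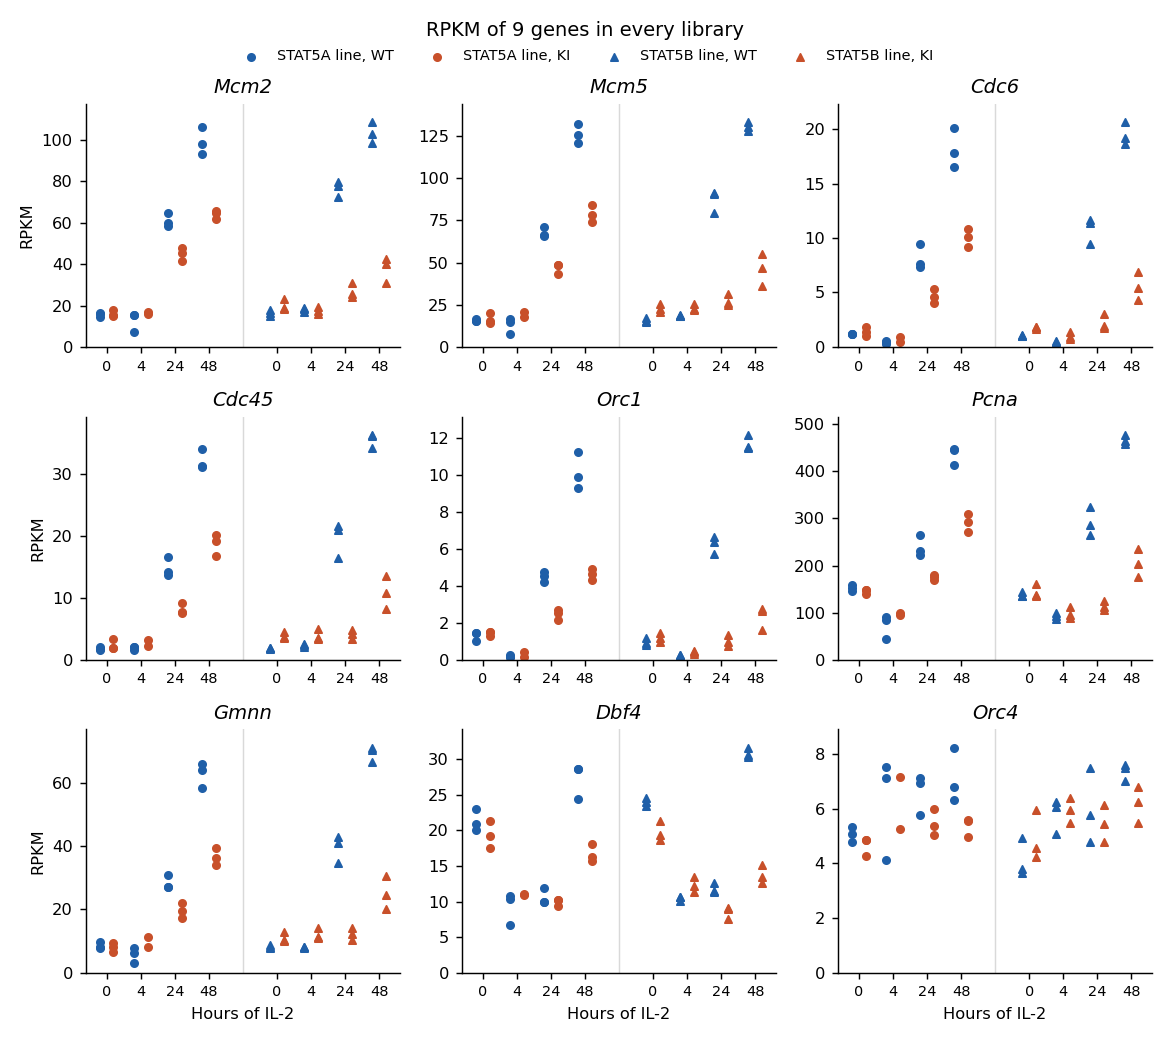
RPKM of 9 genes in every library used, at 0, 4, 24 and 48 h of IL-2 (evenly spaced) in the STAT5A line (circles, left of each panel) and the STAT5B line (triangles, right), WT in blue and KI in orange. Mcm2, Mcm5, Cdc6, Cdc45, Orc1, Pcna and Gmnn rose less in KI than in WT cells, Dbf4 dipped at 4 and 24 h, and Orc4 stayed between 3 and 9 in all libraries.

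Compared with WT cells, 32 genes were called lower in STAT5B KI cells at 24 h (all genes, 5.77%) and 38 at 48 h (all genes, 9.81%), and none higher. Without the fold threshold these were 48 and 49 of the 50 (all genes, 26.3% and 30.5%), and the median log2 fold changes were -1.40 and -1.34, the latter against 0.10 for all genes tested. All KI libraries lay below all WT libraries for 48 genes at 24 h (all genes, 29.7%) and for 49 at 48 h (all genes, 32.1%). Orc5 was the exception at 48 h and, with Orc4, at 24 h. Its log2 fold change at 48 h was -0.05 (SE 0.11, adjusted p = 0.69).

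Orc1 was the gene with the largest difference, at 2.63, 2.73 and 1.64 RPKM in STAT5B KI and 12.2, 11.5 and 11.6 in STAT5B WT cells at 48 h, a log2 fold change of -2.41 (SE 0.20, adjusted p = 1e-12). At 24 h its levels were 0.721, 1.35 and 0.972 and 5.73, 6.64 and 6.36, the KI libraries being near the level before IL-2. Cdc6 had 5.45, 6.88 and 4.29 RPKM in KI cells at 48 h, with a log2 fold change of -1.89 (SE 0.20, adjusted p = 1.4e-10) against WT. Both genes lay below all WT libraries of 24 and 48 h, while Cdt1 was at 29.4, 29.7 and 23.8 against 51.3, 49.3 and 54.9 in WT cells, short of the fold threshold at -0.99 (SE 0.11, adjusted p = 1.2e-09). Geminin had 24.6, 30.5 and 20.1 RPKM against 66.8, 71.0 and 70.4, so that Cdt1 and geminin overlapped in RPKM in the KI cells.

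All 6 MCM2-7 genes were called lower at both times in STAT5B KI cells, with log2 fold changes at 48 h from -1.58 (Mcm5) to -1.31 (Mcm4). Mcm2 had 18.2, 23.3 and 18.9 RPKM at 0 h, 25.6, 31.1 and 24.4 at 24 h and 40.0, 42.7 and 30.7 at 48 h in KI cells, against 15.1, 16.6 and 17.7, 72.4, 79.6 and 77.8 and 102.9, 98.3 and 108.5 in WT cells. Each KI library of 48 h lay below each WT library of 24 h. Mcm6, the most abundant of the helicase genes, had 71.6, 78.5 and 56.3 against 163, 156 and 171 at 48 h, with -1.33 (SE 0.10, adjusted p = 3.6e-14).

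Of the firing factors, Mcm10 had 6.42, 7.29 and 5.42 RPKM in STAT5B KI cells at 48 h against 24.2, 24.6 and 25.7 in WT cells, with -2.04 (SE 0.20, adjusted p = 3.4e-11), although it had started higher in KI cells. Cdc45 had 10.7, 13.5 and 8.21 against 36.1, 34.2 and 36.3, with -1.80 (SE 0.17, adjusted p = 1.6e-11). Of the 10 firing genes 7 were called lower at 48 h. Dbf4 was among them at -1.25 (SE 0.08, adjusted p = 2.5e-15), and after its dip it returned only in part in KI cells, with a log2 fold change of 0.65 (SE 0.08, adjusted p = 4.3e-07) from 24 to 48 h. It had 19.4, 18.7 and 21.4 RPKM at 0 h, 9.07, 8.89 and 7.57 at 24 h and 13.4, 15.1 and 12.6 at 48 h.

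For the elongation genes, Pcna had 204, 234 and 175 RPKM in STAT5B KI cells at 48 h against 464, 457 and 476, with -1.27 (SE 0.09, adjusted p = 3.1e-14), and 8 of the 9 polymerase and primase genes were called lower. Pold3, the exception, was at the threshold with -0.998 (SE 0.10, adjusted p = 5.2e-11). RPA had 1 of 3 subunits called (Rpa3, -1.09), with Rpa1 at -0.66 (SE 0.13, adjusted p = 3.2e-05). Dna2, called higher in WT cells at 48 h, was not called at 48 h in KI cells, where it had been called lower at 4 and 24 h. Its RPKM there was 2.62, 2.75 and 2.10 at 0 h, 0.858, 1.21 and 1.03 at 4 h, 1.10, 1.31 and 0.973 at 24 h and 2.01, 2.83 and 1.94 at 48 h, a log2 fold change over 48 h of -0.33 (SE 0.17, adjusted p = 0.098), against 2.67 in WT cells. Orc6 likewise had a log2 fold change of 0.02 (SE 0.10, adjusted p = 0.88) in KI cells. Chaf1a and Chaf1b were both called lower, at -1.63 and -1.36, as were Lig1 (-1.46), Fen1 (-1.37), Tipin (-1.60) and Timeless (-1.20).

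The response itself was compared between genotypes as the difference of the log2 fold changes from 0 h, which takes the level before IL-2 into account and shares its libraries with the comparisons above. In the STAT5A line 8 genes were called lower in this difference at 24 h (all genes, 1.31%) and 11 at 48 h (all genes, 3.09%), against 36 (all genes, 6.66%) and 40 (all genes, 11.1%) in STAT5B. Without the fold threshold the STAT5A counts were 29 (all genes, 3.30%) and 41 (all genes, 16.2%). The medians were -0.55 and -0.68 (STAT5A) and -1.69 and -1.58 (STAT5B). Without STAT5A KI replicate 1 of 0 h, the STAT5A counts were 2 and 5. That library had the highest Mcm10, Cdc45 and Chaf1a levels of its group. The STAT5A count at 24 h was also 5 without WT replicate 2 or without KI replicate 3 of 24 h.

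The difference between the lines was tested as the KI effect in the STAT5B line minus that in the STAT5A line. At 24 h 15 of the 50 genes were called lower in this difference (all genes, 1.27%), and 44 without the fold threshold (all genes, 11.4%), with a median of -0.83 on the log2 scale. At 48 h 3 genes were called (Orc1, Pole and Mcm10; all genes, 0.514%) and 41 without the fold threshold (all genes, 7.83%), with a median of -0.70. None was called in the other direction. The WT cells of the lines differed in level at 24 h, where the summed reads were 4885 CPM in STAT5A and 5671 in STAT5B WT cells and Mcm5 had 65.9, 70.9 and 66.2 against 79.2, 90.7 and 91.0 RPKM with no overlap. At 48 h Mcm5 overlapped between the WT groups, with 125.4, 132.4 and 120.7 RPKM in the STAT5A and 130.5, 127.9 and 133.1 in the STAT5B line. The KI groups of 48 h did not overlap, with 84.2, 78.4 and 74.2 and 46.9, 55.0 and 36.3. For Mcm5 the difference of the KI effects was -1.09 (SE 0.16, adjusted p = 9.2e-06) at 24 h and -0.85 (SE 0.16, adjusted p = 0.00049) at 48 h. For Orc1 it was -1.72 (SE 0.28, adjusted p = 4.9e-05) and -1.23 (SE 0.27, adjusted p = 0.0029), and for Rpa1 at 48 h it was -0.36 (SE 0.18, adjusted p = 0.21). The count of 3 at 48 h was 9 without STAT5B KI replicate 2, 7 without STAT5A KI replicate 3, 6 without STAT5A WT replicate 2 and 5 without STAT5B WT replicate 1 of that time.

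**Figure D4:**
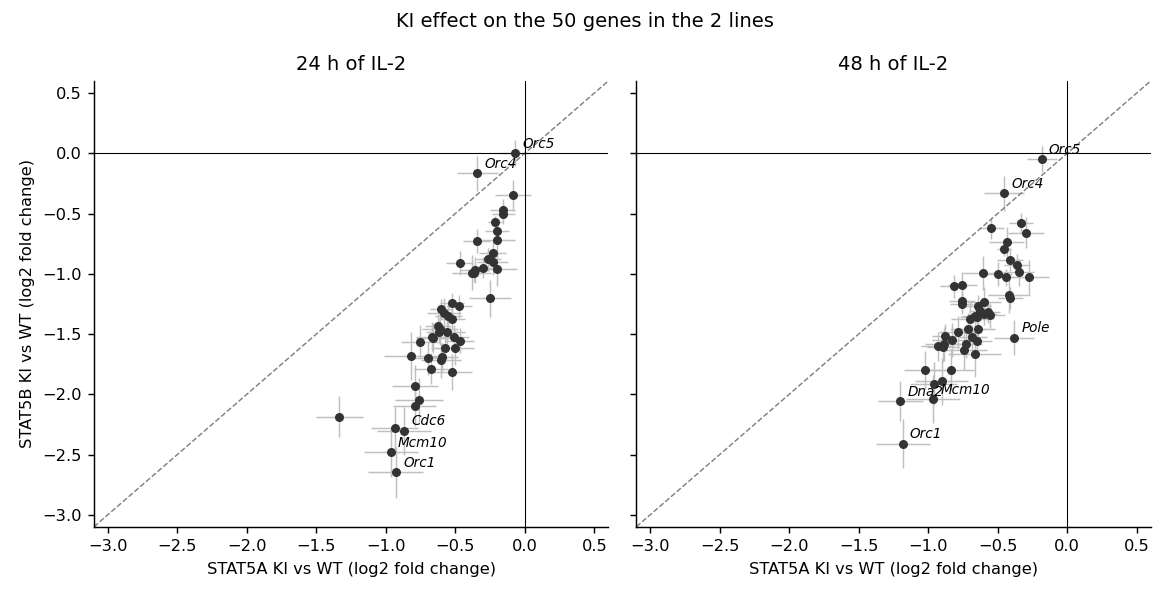
Log2 fold change of KI against WT cells in the STAT5A line (horizontal) and the STAT5B line (vertical) for each of the 50 genes at 24 h (left) and 48 h (right) of IL-2, with SE bars and the line of equal effect (dashed). Most genes lie below the dashed line, at a median of -0.52 against -1.40 at 24 h and -0.65 against -1.34 at 48 h, and Orc5 lies near 0 on both axes.

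Other genes of the pathway were followed in 3 lists, for which the shares of all genes called at 48 h were 14.3% and 14.6% higher and 22.3% and 20.7% lower in STAT5A and STAT5B WT cells, and 2.43% and 9.81% lower in KI against WT cells. Of 10 genes of the E2F and DP transcription factors, 7 were called higher at 48 h in WT cells of each line, led by the family's repressors E2f7 (log2 fold change 4.23, STAT5A) and E2f8 (4.32, STAT5B). In KI cells at 48 h none was called lower than WT for STAT5A and 5 were for STAT5B, E2f8 being lowest at -1.75, whereas E2f5 was at 0.12 and Tfdp2 at 0.38. Of 9 genes of deoxynucleotide supply, 8 were called higher in WT cells of each line, led by the ribonucleotide reductase subunit Rrm2 (4.58 and 4.70). Against WT, 1 was called lower in STAT5A KI cells (Dctpp1, -1.02) and 6 in STAT5B KI cells (Rrm2, -1.87). Rrm2b, the reductase subunit of resting and damaged cells, was at 0.35 and -0.0046 in WT cells over 48 h and at 0.68 in STAT5B KI against WT cells. Of 25 other replication factors, 15 and 18 were called higher in WT cells, led by the checkpoint mediator Clspn (4.46 and 4.25), and 1 was called lower, the small polymerase delta subunit Pold4 (-1.19 and -1.21). In KI against WT cells at 48 h, none of the 25 was called lower for STAT5A and 13 were for STAT5B, with the helicase Recql4 at -1.99 and Pold4, in the other direction, at 0.92.

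The mean of the 50 genes in each of the 16 groups was also used to find the genes with the most similar course. Outside the set, the 10 most alike by Pearson's r of log2 CPM over the 16 group means were Tubg1 (0.997), Tfdp1, Ssrp1, Psat1, Rnaseh2b, Mrpl18, Cdk4, Nup205, Pgk1 and Ran (0.990). Group means hide the spread between libraries and neighbouring times are not independent, so these values are a description. Tfdp1, the partner of E2F factors, had 16.1 RPKM on average at 0 h, 74.7 at 24 h and 131.1 at 48 h in STAT5B WT cells, and 21.3, 24.2 and 42.9 in STAT5B KI cells. Within the set, Dbf4 (0.275), Orc4 (0.483) and Cdt1 (0.626) were least like the mean of the set.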

How the data were processed

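RNA-seq of 48 libraries was deposited per sample as 2 values per transcript: read counts and RPKM (reads per kilobase of transcript, scaled to the mapped reads). Per the labels and the study's methods, the authors aligned 50-base single-end reads to mm10 with TopHat2 2.0.11 and kept uniquely mapped reads, and they made the counts and the RPKM values of the deposited files from these. The counting program and its strand setting are not given in the sources used here, so overlapping and antisense genes cannot be separated. The deposited counts of the longest transcript per symbol were tested with edgeR 4.0.16 in R 4.3.3 (TMM, filterByExpr with a minimum count of 10, glmQLFit with 1 mean per group over 47 libraries, Benjamini-Hochberg over 15566 genes), after the same steps had been tested on simulated data. RPKM was used for levels, for the shares of the WT rise and for the counts of genes whose libraries did not overlap. No test was run on RPKM. Log2 CPM used a prior count of 1. Alternatives were DESeq2 1.42.0, RLE factors, no filter, all 48 libraries, the groups compared alone, the most counted transcript, a replicate block, no fold threshold and each library left out in turn. The alternative tests on log RPKM were not needed, since counts were at hand.

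The genes, lists and comparisons were chosen with earlier results of these data known. Genes are named by role (highest level, largest and smallest WT rise), for the largest and smallest KI effects, for calls against the direction of the set, and as Cdc6, Cdt1, Gmnn, Mcm2 to Mcm7, Cdc45 and Pcna throughout; Dna2, Orc4, Gins4, Cdc7 and the shares by role were added after their values were seen. Same-numbered libraries deviated together (r over 0.1 in all 3 pairs) in 3 of 20 time comparisons, where r ran from -0.226 to 0.426. In the time comparisons r was below 0 only for replicate 1 of STAT5A WT, from 0 to 4 h (-0.226) and from 4 to 24 h (-0.013). The same 2 steps in STAT5A KI had 2 pairs and could not meet the rule, with r of 0.161 to 0.181 and of 0.126 to 0.263. The rule was met in 0 of 8 genotype comparisons, where r ran from -0.223 to 0.074. Promoter windows come from RefSeq, and all 50 windows of the 41 matched genes equalled the GRCm38.p6 genome. Binding data of the series were not used here. A gene of the naive T cell list is not reported here, and the sum of the list is given without it.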

Additional observations from a re-analysis of the deposited data

Results flagged for a closer look

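The KI effect differed between the lines, by the interaction term and the fold threshold, in 15 genes at 24 h and in 3 at 48 h. The values are the log2 fold change of KI against WT cells in the STAT5B line minus that in the STAT5A line, each fold change resting on 3 libraries per group. At 24 h they were -1.72 for Orc1, -1.52 for Mcm10, -1.43 for Cdc6, -1.34 for Cdc45, -1.31 for Gins1, -1.29 for Pole, -1.28 for Gins2 and -1.14 for Chaf1a. They were -1.12 for Gmnn, -1.11 for Lig1 and for Fen1, -1.09 for Mcm5 and for Mcm7, -1.04 for Mcm3 and -1.02 for Mcm2. At 48 h they were -1.23 for Orc1, -1.15 for Pole and -1.08 for Mcm10. At 24 h all 15 genes were lower than WT in both lines at an adjusted p of at most 0.05 (edgeR). Line and any difference in handling cannot be told apart. Marker sums of B, erythroid and myeloid cells were further above WT in STAT5B KI than in STAT5A KI libraries at 48 h, and their part in the difference was not tested.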

How the results depend on the processing

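A reversed median was looked for only where the count of genes followed, higher or lower, was at least 1. This left out STAT5A KI against WT at 0 and 4 h, with median log2 fold changes of 0.05 and 0.18. It also left out the STAT5B KI change from 0 to 24 h (0.11). In the other comparisons run again the directions of the medians held under each alternative, except for the STAT5A KI change from 0 to 4 h. Its median log2 fold change was -0.04, and leaving out each library in turn gave -0.173 to 0.0628, with 0.0628 without STAT5A KI replicate 1 of 0 h and 0.0305 without KI replicate 2 of 4 h. The genes called at fold changes near the threshold moved most. STAT5A KI against WT at 48 h gave 3 genes, and 5 with DESeq2, with RLE factors, with another TMM reference library (an alternative added after seeing the data), with all 48 libraries, with no filter or with the most counted transcript. STAT5B KI against WT at 0 h gave 1 and 2 with DESeq2, RLE factors or the groups compared alone. With all 48 libraries STAT5A KI against WT at 4 h gave 1 in place of 0 and the STAT5A response difference at 24 h 4 in place of 8, and with no filter the line difference at 48 h gave 5 in place of 3. With the replicate block STAT5B KI against WT at 4 h gave 1 gene higher in place of 3 and the line difference at 48 h 5 in place of 3, and the pairing changed no other count by over 1.5 times. Without the fold threshold, the STAT5A counts were 23 lower in WT and 13 lower in KI at 4 h (5 and 4 with it, against 11.4% and 11.2% of all genes), 43 higher in KI at 24 h and 47 higher from 24 to 48 h in WT. For STAT5A KI against WT they were 1 higher and 1 lower at 0 h, 6 higher at 4 h, and 38 and 47 lower at 24 and 48 h. The STAT5A response difference gave 29 and 41 lower. The STAT5B counts were 14 and 16 lower at 4 h in WT and KI (4 and 3 with it), 14 and 42 higher in KI at 24 and 48 h, and 46 higher from 24 to 48 h in WT. For STAT5B KI against WT they were 16 higher and 1 lower at 0 h, and 11 higher and 1 lower at 4 h. The line difference gave 44 and 41 lower. Leaving out each library in turn gave 0 to 1, 1 to 4 and 3 to 7 genes for STAT5A KI against WT at 4, 24 and 48 h, 2 to 10 and 5 to 13 for its response difference, 7 to 13 for the STAT5B KI rise to 48 h, 0 to 3 and 1 to 3 for STAT5B KI against WT at 0 and 4 h, and 2 to 9 for the line difference at 48 h. The median of all genes moved by up to 0.13 on the log2 scale between settings. Library depth did not limit the genes named, which were counted in all groups, but Orc1, Cdc6, Dna2 and Mcm10 were low at 0 and 4 h.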
